A study of Mus musculus with 8 samples.

Results

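Receptors for neurotransmitters and neuropeptides were examined in the spinal cords of SJL/J mice with experimental autoimmune encephalomyelitis (EAE), an animal model of multiple sclerosis, and of healthy control mice. The members are the probe sets of the Affymetrix MG U74Av2 array that carry 1 gene symbol of a glutamate, GABA, glycine, acetylcholine, serotonin, dopamine, adrenergic, histamine or P2 purine receptor, or of a receptor for neuropeptide Y, opioids, tachykinins or somatostatin. Symbols were taken from the array annotation and chosen by their spelling, not by their values. This gave 92 probe sets for 76 genes, of 12422 probe sets and 8251 genes in all, and all 92 were tested, with no filter on low signals. Each of the 76 genes was placed in 1 of 14 transmitter classes.

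The EAE group was 5 arrays of mice injected with PLP peptide under the skin of the flank, with an average EAE grade of 2.5, killed on EAE day 12 to 14 (array 2), 14 (arrays 1 and 4), 15.5 (array 5) or 17 (array 3). The control group was 3 arrays of mice given vehicle. All mice were female SJL/J mice of 8 to 12 weeks per the labels, and RNA of 2 animals was pooled for each array, so that 10 EAE mice and 6 control mice were used. EAE mice also received murine serum albumin into a vein shortly before they were killed, and no such injection is named for controls, so the albumin and EAE cannot be told apart. Arrays were run in 5 batches that equal the replicate numbers. An EAE array had a control partner in batches 1, 2 and 3, and none in batches 4 and 5. Values are log2 signals, on which a difference of 1 is a doubling. The log2 fold change is EAE minus control from limma with treatment and batch in the model, so it rests on the 3 pairs of batches 1 to 3, and EAE arrays 4 and 5 have no weight in it. A probe set was called at a Benjamini-Hochberg adjusted p under 0.05 over all 12422 probe sets. Intervals are 95% confidence intervals of the log2 fold change.

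As background, fast signalling between spinal neurons runs through receptors that are themselves ion channels. Glutamate excites through AMPA, kainate and NMDA receptors, and glycine and GABA inhibit through chloride channels, which in the spinal cord set the balance of motor and sensory circuits. Amines, peptides and part of the action of glutamate, GABA, acetylcholine and ATP work through slower receptors coupled to G proteins. Receptors for ATP, the P2X channels and the P2Y receptors, are also carried by microglia and other immune cells, which respond to ATP released from injured tissue.

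Array quality and cell type markers bear on all values. In the control arrays the neuronal marker mean lay between 9.52 and 9.63 on the log2 signal scale, so the tissue carried its neuronal label. It lay between 8.74 and 9.21 in EAE, with 4 of 9 measured markers lower (Eno2, Nefh, Snap25 and Stmn2) and none of the 9 higher. The macrophage and microglia marker mean was 5.86 to 5.95 in control and 7.82 to 8.33 in EAE, with 9 of 10 markers higher, and the skeletal muscle markers showed no call among 6. The oligodendrocyte marker mean was 9.37 to 9.62 in control and 8.66 to 9.16 in EAE, with 2 of 7 markers lower (Mog at -0.89 and Ugt8a at -1.63). Of 5 astrocyte markers Gfap was higher (0.74) and none was lower. Of 7 T cell markers 2 were higher (Cd2 and Cd3e) and 1 was lower. The lower one, Thy1, was the brightest of the 7, with a mean of 10.50 in control. In 5 of the 7 all EAE arrays lay above all control arrays, against 11.9% of all genes. Of 2 motor neuron markers 1 was lower. In whole tissue, fewer cells of a type and less RNA per cell cannot be told apart. The Gapdh probe sets for the 3' and 5' ends of the transcript, whose log2 signals drift apart as RNA degrades, differed by 1.46 and 2.07 in EAE arrays 1 and 4. In EAE arrays 2, 3 and 5 they differed by 0.46 to 0.78, and in controls by 0.53 to 0.97. The same difference for beta-actin was 2.35 and 2.79 in EAE arrays 1 and 4, 1.11 to 1.83 in EAE arrays 2, 3 and 5 and 1.62 to 2.29 in control arrays, so by this gene array 1 stood close to the controls.

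Receptor genes were lower in EAE in 10 cases and higher in 1. The lower genes were the AMPA receptor subunits Gria1, Gria2 and Gria3, the kainate receptor subunit Grik1, the metabotropic glutamate receptor Grm8, the GABA-A receptor subunits Gabra2 and Gabrb1, the GABA-B receptor subunit Gabbr1, the glycine receptor subunit Glrb and the dopamine receptor Drd2, with log2 fold changes between -0.84 and -0.29, or 56% to 81.8% of the control signal. The higher gene was P2rx4, an ATP-gated channel of microglia and neurons, with a log2 fold change of 0.77. The 10 lower genes are 13.2% of the 76 receptor genes, and over all genes 13.5% were called lower, so receptors as a whole were lower about as often as other genes. The 1 higher gene is 1.32%, where 9.19% of all genes were called higher. The median log2 fold change was -0.03 over the receptor genes and -0.05 over all genes. Counted by probe sets, 12 of 92 were lower (13.0%, against 11.4% of all probe sets) and 1 was higher (1.09%, against 8.26%). The count of 12 lower probe sets was 8 when EAE array 1 or control array 1 was left out. It was 6 when the array left out was EAE array 2 or control array 2, and 5 for EAE array 3 or control array 3, since dropping either member of a pair gives the same fit. The shares over all probe sets in these fits were not counted.

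**Figure D1:**
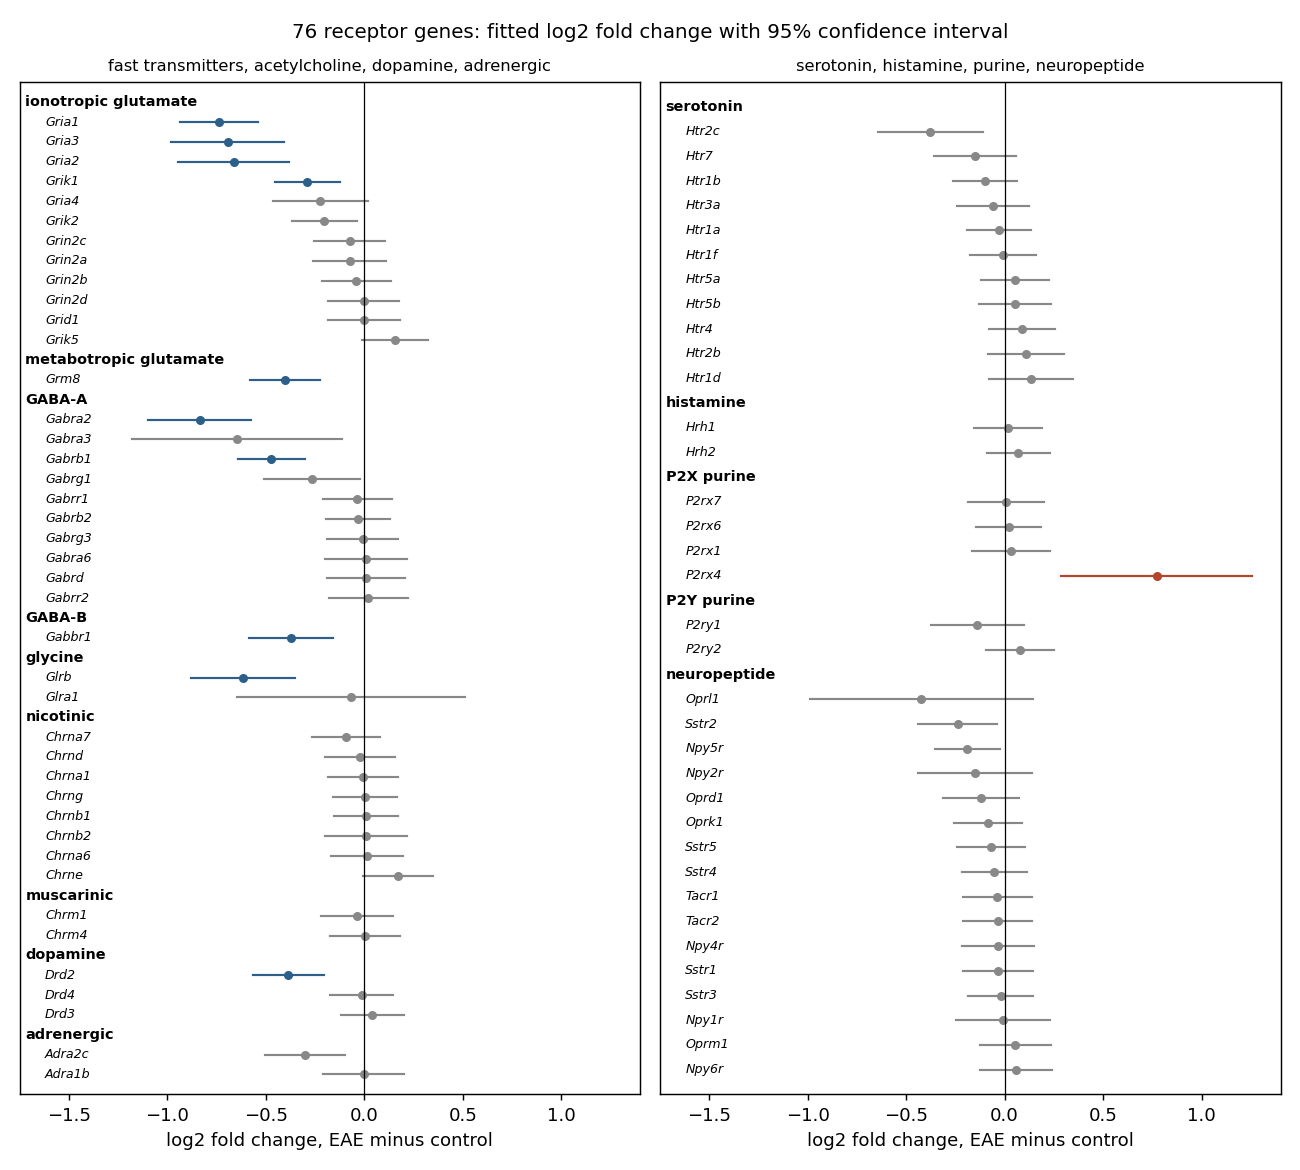
Fitted log2 fold change (EAE minus control, horizontal axis) of the 76 receptor genes, grouped by transmitter class, with 95% confidence intervals as lines; blue marks genes called lower, red the gene called higher and grey genes not called. The called genes lie among the glutamate, GABA, glycine, dopamine and P2X receptors, and P2rx4 is the only one to the right of 0.

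Most receptors gave a low signal. The median receptor gene stood at the 33rd percentile of the mean signal of all probe sets. For comparison, 20 measured genes of other organs, such as protamines and digestive enzymes, had a median signal of 5.29 and a 90th percentile of 6.67. Of the 76 receptor genes 65 lay at or below 6.67, and the 11 above it were, from the brightest, Gabbr1, Gria2, Glrb, Gabrb1, Chrne, P2rx4, Gria1, Grik5, Grin2c, Glra1 and Sstr4. A low signal gives no proof of absence and no order of abundance between genes, since probe sets differ in brightness. Of these 11 receptors 5 were lower (45.5%), against 21.6% of the 3742 genes above the same signal, a division chosen after the values were seen. The other 5 lower genes, Gabra2, Gria3, Grik1, Grm8 and Drd2, lay at or below it.

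**Figure D2:**
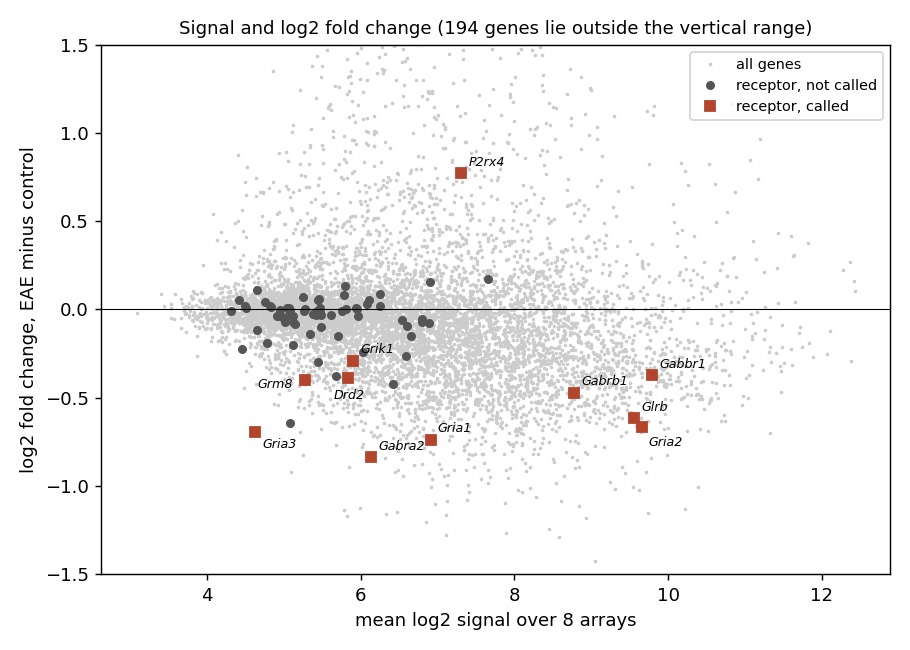
Log2 fold change (EAE minus control) against the mean log2 signal over the 8 arrays for all 8251 genes in light grey, receptor genes not called in dark grey and receptor genes called in red; 194 genes lie outside the vertical range. Most receptor genes cluster near 0 at low signals, and the brightest receptors, Gabbr1, Gria2, Glrb and Gabrb1, lie below 0.

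The promoters of 4 genes are shown because they include the brightest receptor channels that fell, the gene with the largest fitted fall with batch in the model and the receptor that rose. Gria2 and Glrb are also neighbours in the genome, with 0 other protein-coding genes between them, as are P2rx4 and P2rx7. Each sequence is the 250 bases upstream of the annotated start, 5' to 3' on the gene's strand, from RefSeq on GRCm38.p6. They lie at chr3:80802836-80803085 (minus strand) for Gria2, chr3:80913661-80913910 (minus strand) for Glrb, chr5:71095850-71096099 (minus strand) for Gabra2 and chr5:122707294-122707543 (plus strand) for P2rx4. Capitals mark a GC box, GGGCGG on either strand, the letters bound by Sp1.
Gria2: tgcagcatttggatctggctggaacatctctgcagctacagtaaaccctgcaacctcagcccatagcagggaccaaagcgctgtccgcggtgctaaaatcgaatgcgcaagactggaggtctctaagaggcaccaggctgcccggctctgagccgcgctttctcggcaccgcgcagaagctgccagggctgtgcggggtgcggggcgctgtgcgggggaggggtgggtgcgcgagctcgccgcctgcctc
Glrb: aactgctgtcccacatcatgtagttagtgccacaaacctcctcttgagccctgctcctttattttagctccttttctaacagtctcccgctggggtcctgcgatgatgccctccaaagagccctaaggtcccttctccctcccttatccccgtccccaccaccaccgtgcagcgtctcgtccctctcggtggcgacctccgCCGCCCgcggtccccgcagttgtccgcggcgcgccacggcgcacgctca
Gabra2: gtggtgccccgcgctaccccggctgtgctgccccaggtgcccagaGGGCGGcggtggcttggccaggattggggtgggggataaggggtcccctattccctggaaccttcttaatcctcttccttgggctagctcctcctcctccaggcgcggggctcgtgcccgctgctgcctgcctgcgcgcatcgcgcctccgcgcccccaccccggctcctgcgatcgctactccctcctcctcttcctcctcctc
P2rx4: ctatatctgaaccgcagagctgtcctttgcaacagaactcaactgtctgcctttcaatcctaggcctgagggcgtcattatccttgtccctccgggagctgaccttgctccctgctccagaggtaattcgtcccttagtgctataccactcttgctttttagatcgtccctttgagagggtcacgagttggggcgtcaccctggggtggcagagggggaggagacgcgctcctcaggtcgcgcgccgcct
Of 58 receptor genes with a promoter entry, with 77 starts, 41.6% of the windows held a GC box, against 32.7% of 32851 windows of the same length. The TATA box letters TATAAA stood in 7.79% of receptor windows and 12.4% of all windows, and the cyclic AMP response element TGACGTCA in 1.3% and 1.55%, each searched on both strands. None of the 4 sequences shown held either of these 2 motifs, which says only that these letters are not in these windows.

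Among ionotropic glutamate receptors 4 of 12 genes were lower and none was higher, and 11 of the 12 log2 fold changes were below 0, with a median of -0.14. Over all genes 13.5% were called lower and 9.19% higher, and 5177 of 8251 log2 fold changes were below 0. The AMPA receptor subunits carry most fast excitation. Gria1 gave log2 signals of 6.92, 6.83, 6.69, 6.18 and 5.98 in EAE arrays 1 to 5 and 7.71, 7.43 and 7.52 in control arrays 1 to 3. Every EAE array lay below every control array, with an exact permutation p of 0.0179 (two-sided, the smallest that 56 regroupings of 8 arrays allow). EAE arrays 4 and 5, which have no weight in the fitted value, were the lowest of all. The fitted difference was -0.74 (standard error 0.0766, adjusted p = 0.00496 from limma), and -1.03 without the batch term, where arrays 4 and 5 count. The call of Gria1 held in all 17 alternatives run, though leaving out EAE array 4 or 5 only repeats the main fit. A dimmer probe set of Gria1 was not called (log2 fold change -0.33, interval -0.69 to 0.03).

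Gria2, the subunit that limits calcium entry through AMPA receptors, was the brightest glutamate receptor, at the 96.3 percentile of signal. It gave 9.62, 9.53, 9.12, 9.59 and 9.11 in EAE and 10.04, 10.18 and 10.04 in control, with no overlap (log2 fold change -0.66, standard error 0.110, adjusted p = 0.0175 from limma). Its 4 probe sets did not give the same answer. A dimmer one, with a suffix that marks a family of like sequences, fell by 0.87 (adjusted p = 0.00822 from limma). Another had a log2 fold change of -0.68 with overlapping groups (adjusted p = 0.0601 from limma), and the dimmest one of -0.08 (adjusted p = 0.560 from limma). The brightest one had an adjusted p of 0.0718 without an array of batch 2 and 0.0803 without an array of batch 3.

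Gria3, a further AMPA subunit, gave 4.46, 4.35, 4.34, 4.26 and 4.40 in EAE and 5.36, 5.12 and 4.75 in control. The EAE arrays lay close together at the low end of the signal scale, while the control arrays spread over a wider range (SD of 0.08 in EAE, n = 5, and 0.31 in control, n = 3). The fitted difference was -0.69 (standard error 0.112, adjusted p = 0.0161 from limma, 0.0743 without an array of batch 2). All EAE arrays lay below all control arrays for Gria4, which was not called (log2 fold change -0.22, adjusted p = 0.176 from limma). Grik1, a kainate receptor subunit, had a smaller fall, from 6.06 ± 0.03 (SD, n = 3 arrays) in control to 5.80 ± 0.09 (SD, n = 5 arrays) in EAE (log2 fold change -0.29, standard error 0.0644, adjusted p = 0.0371 from limma). It did not pass without an array of batch 1, 2 or 3 (adjusted p = 0.0835, 0.132 and 0.166). For the kainate subunit Grik5 the 2 probe sets had opposite signs, 0.15 and -0.18, and neither was called.

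The NMDA receptor subunits Grin2a, Grin2b, Grin2c and Grin2d, which give glutamate its slow calcium-carrying current, were not called. Their log2 fold changes were -0.07, -0.04, -0.07 and 0.00, and their intervals lay between -0.26 and 0.18. The interval of Grin2c, the brightest of them, was -0.26 to 0.11, and the log2 fold change of Gria1 (-0.74) lay outside it. The mean signal of Grin2c was 6.89, close to 6.67, the 90th percentile of the genes of other organs. Grin2a, Grin2b and Grin2d were at 5.12, 4.98 and 4.95, below 5.29, the median of the genes of other organs. The signals of these NMDA subunits may hold background, so their intervals are of signals and need not hold for RNA. The NMDA receptor subunit Grin1 was not among the members. The delta receptor Grid1 was at 0.00. Grm8, a metabotropic receptor that restrains glutamate release, was the only receptor of its class measured. It gave 5.05, 5.11, 5.07, 5.16 and 5.33 in EAE and 5.47, 5.43 and 5.54 in control, without overlap (log2 fold change -0.40, standard error 0.0693, adjusted p = 0.0194 from limma). Without an array of batch 1, 2 or 3 its adjusted p was 0.0562, 0.0593 and 0.111, and it was 0.0567 when EAE arrays 1 and 4 and the batch term were left out.

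**Figure D3:**
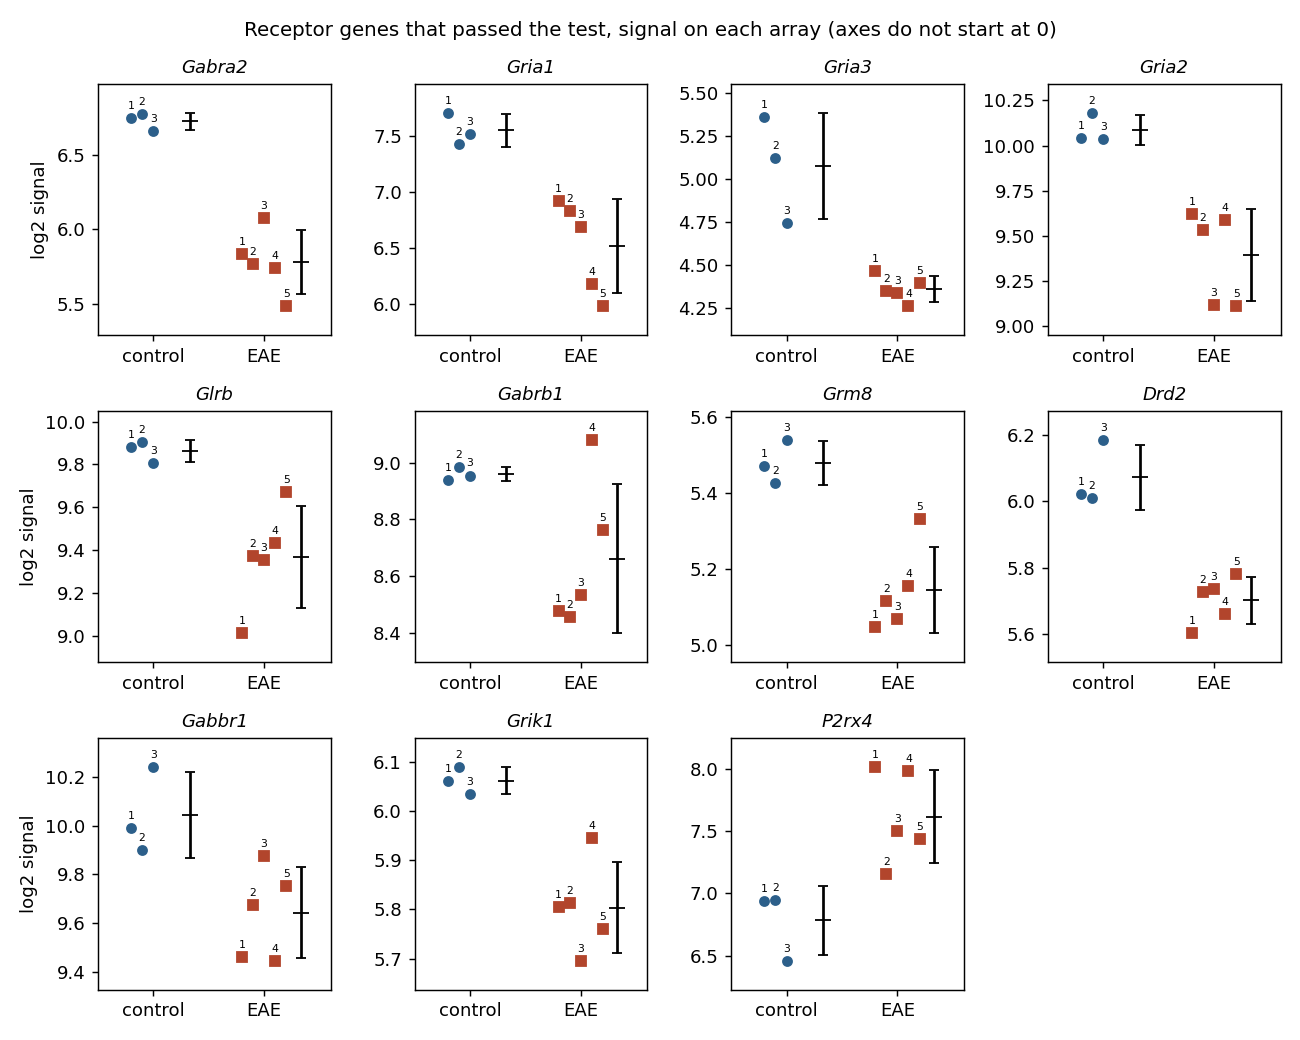
Log2 signal (vertical axes, not starting at 0) of the 11 called receptor genes on each of 3 control arrays (blue circles) and 5 EAE arrays (red squares), numbered by replicate, and black marks for group means with their SD. The groups do not overlap for 10 of the genes, and for Gabrb1 EAE array 4 lies above the controls.

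Inhibitory receptors were lower for the GABA-A subunits Gabra2 and Gabrb1, the glycine receptor subunit Glrb and the GABA-B subunit Gabbr1. Gabra2 had the largest fitted fall among the genes with batch in the model. Gria1 fell more without the batch term (-1.03 against -0.95 for Gabra2), with batch as a random block (-0.97 against -0.92), without EAE arrays 1 and 4 and the batch term (-1.05 against -0.95) and without an array of batch 2 (-0.81 against -0.75). The log2 signals of Gabra2 were 5.83, 5.77, 6.08, 5.74 and 5.48 in EAE and 6.75, 6.77 and 6.66 in control. The highest EAE array lay well below the lowest control array (log2 fold change -0.84, standard error 0.102, adjusted p = 0.00763 from limma). The interval of the log2 fold change was -1.10 to -0.58. Its EAE signals lay below 6.67, the 90th percentile of the genes of other organs, so they may hold background and the ratio of signals (56% of control) need not be the ratio of RNA. Like Gria1, Gabra2 was called in all 17 alternatives run. Its neighbour in the GABA-A gene cluster, Gabrg1, a gamma subunit, was below 0 in all 3 batches but was not called (log2 fold change -0.27, adjusted p = 0.127 from limma).

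The result for Gabrb1, a beta subunit of the same cluster, depended on which EAE arrays counted. It gave 8.48, 8.46 and 8.53 in EAE arrays 1 to 3, 9.08 and 8.76 in EAE arrays 4 and 5, and 8.94, 8.99 and 8.96 in control. The 3 paired EAE arrays were lower than the controls and array 4 was higher than every control. With batch in the model the fitted difference was -0.47 (standard error 0.0656, adjusted p = 0.0109 from limma). Without the batch term it was -0.30 and did not pass (adjusted p = 0.183 from limma), and the exact permutation p over all 8 arrays was 0.125. Without the batch term and EAE arrays 1 and 4 it was -0.38 and passed (adjusted p = 0.0327 from limma). EAE array 4 had the highest 3' minus 5' signal of Gapdh (2.07) and of beta-actin (2.79), and the part of RNA degradation in this was not tested. Without an array of batch 2 or 3 the adjusted p was 0.0602 and 0.0660. For Gabra3, an alpha subunit, the arrays were separate but the pairs were uneven. Its EAE arrays (4.44 to 5.08) lay below every control array (5.19 to 5.97), the within-batch differences were -1.20, -0.11 and -0.62, and it was not called (log2 fold change -0.65, interval -1.18 to -0.11, adjusted p = 0.0977 from limma). The other 6 GABA-A subunits, Gabra6, Gabrb2, Gabrd, Gabrg3, Gabrr1 and Gabrr2, had log2 fold changes between -0.04 and 0.02. The median over the 10 GABA-A genes was -0.03.

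Glrb, the beta subunit that anchors glycine receptors at the synapse, was among the brightest receptors. It gave 9.01, 9.37, 9.36, 9.43 and 9.67 in EAE and 9.88, 9.90 and 9.80 in control, with no overlap (log2 fold change -0.62, standard error 0.102, adjusted p = 0.0176 from limma, 0.0609 without an array of batch 2 and 0.0694 without an array of batch 3). Glra1, the alpha 1 subunit of the adult glycine receptor, was not called and varied widely between EAE arrays, at 6.41, 7.40, 6.63, 6.18 and 7.14, against 6.92, 6.79 and 6.94 in control. Its log2 fold change was -0.07 with an interval of -0.65 to 0.51, so a fall of the size of that of Glrb lies within the interval. Its lowest values were in EAE arrays 1 and 4, the arrays with the highest 3' minus 5' signal of Gapdh and of beta-actin, and the part of RNA degradation in this was not tested. Gabbr1, the ligand-binding subunit of the GABA-B receptor and the brightest receptor of all, gave 9.46, 9.67, 9.88, 9.45 and 9.75 in EAE and 9.99, 9.90 and 10.24 in control. The groups were separate by a narrow margin (log2 fold change -0.37, standard error 0.0835, adjusted p = 0.0377 from limma). Its lowest values were also in EAE arrays 1 and 4, and without both arrays and the batch term the log2 fold change was -0.28 and did not pass (adjusted p = 0.130 from limma). It also did not pass without an array of batch 1, 2 or 3 (adjusted p = 0.103, 0.0688 and 0.163), nor with a further quantile normalization (adjusted p = 0.0604) or an intensity trend (adjusted p = 0.0688).

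**Figure D4:**
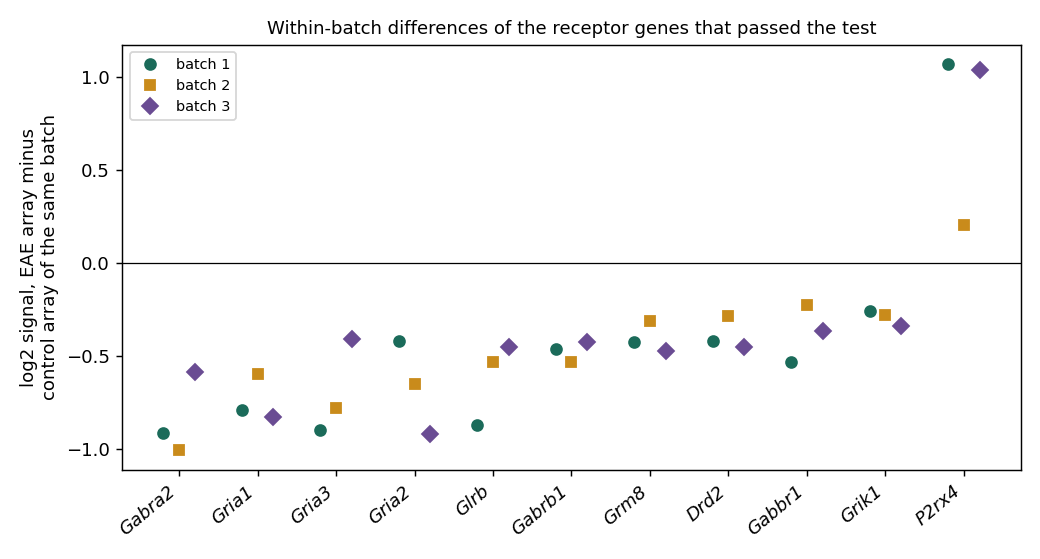
Log2 signal of the EAE array minus that of the control array of the same batch (vertical axis) for the 11 called receptor genes, with batches 1, 2 and 3 as circles, squares and diamonds. All 3 differences are below 0 for the 10 lower genes and above 0 for P2rx4, whose difference in batch 2 is 0.20 against 1.07 and 1.04 in the others.

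Of the amine receptors only Drd2, an inhibitory dopamine receptor, was called. It gave 5.60, 5.72, 5.73, 5.66 and 5.78 in EAE and 6.02, 6.01 and 6.19 in control, a small and even difference (log2 fold change -0.39, standard error 0.0701, adjusted p = 0.0222 from limma). It did not pass without an array of batch 1, 2 or 3 (adjusted p = 0.0647, 0.0616 and 0.122). Drd3 and Drd4 were at 0.04 and -0.01. Adra2c, an inhibitory adrenergic receptor, gave 5.18 to 5.51 in EAE and 5.54 to 5.74 in control and just missed the threshold (log2 fold change -0.30, adjusted p = 0.0592 from limma). It was called in 5 of 16 alternatives, for example when batch was dropped (adjusted p = 0.0475 from limma). With EAE arrays 1 and 4 dropped as well it was at -0.22 (adjusted p = 0.134 from limma). Adra1b was at 0.00.

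None of 11 serotonin receptors, 8 nicotinic and 2 muscarinic acetylcholine receptors and 2 histamine receptors passed the test. Among serotonin receptors Htr2c stood apart at -0.38 (interval -0.64 to -0.11, adjusted p = 0.0657 from limma). Its EAE arrays (5.31 to 5.70) lay below every control array (5.84 to 5.97). The other 10 serotonin receptors had intervals within 0.5 of 0 on the log2 scale, as did all 8 nicotinic receptors. All serotonin receptors, and all nicotinic ones but Chrne, lay below 6.67, the 90th percentile of the genes of other organs. Their signals may hold background, so these intervals need not hold for RNA. Htr3a, the serotonin receptor that is an ion channel, was the brightest of the class, with means of 6.52 in EAE (SD 0.04, n = 5) and 6.57 in control (SD 0.07, n = 3). The brightest nicotinic gene, Chrne, a subunit of the adult muscle receptor, lay between 7.68 and 7.78 in EAE and between 7.43 and 7.65 in control, a difference of 0.17 that did not pass (adjusted p = 0.167 from limma). This probe set has a suffix that marks relaxed design rules, and the 2 other Chrne probe sets were at -0.01 and 0.09. Chrna7, which neurons and macrophages carry, was at -0.09 (interval -0.27 to 0.08). The muscarinic receptors Chrm1 and Chrm4 were at -0.04 and 0.00, and the histamine receptors Hrh1 and Hrh2 at 0.02 and 0.07.

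P2rx4 was the 1 receptor that rose. The channel opens to ATP and is known from microglia of the injured spinal cord. Its log2 signals were 8.01, 7.15, 7.50, 7.98 and 7.44 in EAE and 6.94, 6.95 and 6.46 in control. The groups did not overlap, though EAE array 2 stood just above the controls (exact permutation p = 0.0357, two-sided). The log2 fold change was 0.77 (standard error 0.189, interval 0.29 to 1.26), a 1.71-fold rise, with an adjusted p of 0.0482 from limma. The within-batch differences were 1.07, 0.20 and 1.04. The call was lost without an array of batch 1 (adjusted p = 0.121), without an array of batch 3 (adjusted p = 0.236), with a further quantile normalization (adjusted p = 0.0544) and with a robust variance prior (adjusted p = 0.0507). EAE arrays 1 and 4 were the highest for P2rx4. Without them and without the batch term the log2 fold change was 0.58 (adjusted p = 0.0490 from limma). Relative to the control mean, the macrophage and microglia markers were higher by 2.11, 1.93, 2.44, 2.11 and 1.97 in EAE arrays 1 to 5. Arrays 2 and 5 were the lowest of the EAE arrays in both P2rx4 and these markers. Array 3 had the highest marker value (2.44) but a P2rx4 signal of 7.50, below the 8.01 and 7.98 of arrays 1 and 4. The part of the markers' cells in the rise was not tested.

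The other purine receptors were not called. P2rx7, an ATP channel of macrophages and the neighbour of P2rx4 in the genome, was at 5.94, 5.87, 6.03, 5.85 and 5.97 in EAE and 5.90, 5.99 and 5.93 in control. The groups overlapped fully, with a log2 fold change of 0.01 and an interval of -0.19 to 0.20. The mean signal of P2rx7 was 5.93, below 6.67, the 90th percentile of the genes of other organs. Its signals may hold background, so this interval need not hold for RNA. P2rx1 and P2rx6 were at 0.03 and 0.02. Among P2Y receptors, P2ry1 was at -0.14 (interval -0.38 to 0.10) and P2ry2 at 0.08 (interval -0.09 to 0.25).

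The 16 receptors for neuropeptides, the largest class, held no called gene. Their median log2 fold change was -0.04, and 14 of 16 values were below 0, against a median of -0.05 and 5177 of 8251 values over all genes. The intervals of 15 lay within 0.5 of 0, the exception being the nociceptin receptor Oprl1 (log2 fold change -0.42, interval -0.99 to 0.14, adjusted p = 0.270 from limma). All of the class but Sstr4 lay below 6.67, the 90th percentile of the genes of other organs. Their signals may hold background, so these intervals need not hold for RNA. Oprl1 gave 5.86, 6.63, 6.38, 5.81 and 6.53 in EAE and 6.85, 6.46 and 6.83 in control. Its 2 lowest values were in EAE arrays 1 and 4, and the part of RNA degradation in this was not tested. The opioid receptors Oprd1, Oprk1 and Oprm1 were at -0.12, -0.09 and 0.05, and the substance P receptor Tacr1 at -0.04. Npy5r lay between 4.64 and 4.77 in EAE and between 4.87 and 4.94 in control, without overlap and without passing (log2 fold change -0.19, adjusted p = 0.110 from limma). The somatostatin receptor Sstr2 depended on the probe set. The brightest did not pass (log2 fold change -0.24, adjusted p = 0.104 from limma). A dimmer one was lower (log2 fold change -0.61, standard error 0.0710, adjusted p = 0.00674 from limma), at 5.28, 5.21, 5.09, 5.53 and 5.57 in EAE and 5.85, 5.93 and 5.64 in control, and the dimmest was at -0.07. Sstr4, the brightest of the class, was at -0.05.

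Set side by side, the transmitter classes differed in how many genes were called, and no test was made between them. Of the 10 lower genes 7 were subunits of glutamate, GABA-A or glycine channels. By mechanism, 7 of 37 ligand-gated channel genes were lower and 1 was higher, and 3 of 39 genes of receptors coupled to G proteins were lower and none was higher, with a median log2 fold change of -0.03 in both. The shares over all genes were 13.5% lower and 9.19% higher. In the mean log2 signal of the class, the ionotropic glutamate receptors lay between 5.77 and 5.92 in EAE and between 6.11 and 6.15 in control, and the GABA-A receptors between 5.46 and 5.55 in EAE and between 5.70 and 5.74 in control. Such a separation was not particular to these 2 classes. The neuropeptide receptors, with no called gene, lay between 5.51 and 5.56 in EAE and between 5.59 and 5.66 in control. The dopamine receptors lay between 5.28 and 5.34 in EAE and between 5.41 and 5.44 in control. The mean of all 76 receptor genes lay between 5.73 and 5.75 in EAE and between 5.83 and 5.86 in control, while the mean over all genes overlapped. The nicotinic receptors lay between 5.76 and 5.81 in both groups. The mean of the serotonin receptors also overlapped, at 5.55 to 5.61 in EAE and 5.57 to 5.62 in control. By single genes, in 16 of 76 receptors (21.1%) all EAE arrays lay below all control arrays, against 16.7% of all genes, and in 3 (3.95%) all lay above, against 11.9% of all genes. Of the receptor genes 32.9% were below 0 in all 3 batches, against 37.1% of all genes. A further 7 receptor genes had an unadjusted p under 0.05 from limma without passing, and all 7 were below 0. The matching share over all genes was not counted, so this is no trait of receptors. Over all genes 5177 of 8251 log2 fold changes were below 0. Of the 65 receptor genes not called, 59 had an interval within 0.5 of 0, and the share over all genes was not counted. Of the same 65 genes, 60 lay at or below 6.67, the 90th percentile of the genes of other organs. Their signals may hold background, so narrow intervals of signals need not hold for RNA.

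Genes that make, pack or remove transmitters and genes that anchor receptors were counted from lists of the same pathways. Of 31 listed genes of transmitter synthesis, packaging and uptake 16 were measured, and 6 were lower and 1 was higher, with a median log2 fold change of -0.23. Over all genes 13.5% were lower and 9.19% higher, and among the 3742 brighter genes described above 21.6% were lower and 11.1% higher. The lower genes were Gad1 (-0.68) and Gad2 (-0.36), which make GABA, Slc32a1 (-0.84), which loads GABA and glycine into vesicles, the glycine transporter Slc6a9 (-0.64), the glutamate transporter Slc1a1 (-0.56) and Ddc (-0.44), an enzyme of dopamine and serotonin synthesis. The higher gene was Hdc (0.91, adjusted p = 0.00227 from limma), which makes histamine and is known from mast cells and other myeloid cells. Its receptors Hrh1 and Hrh2 were not called. Of 30 listed anchoring and scaffold genes 17 were measured, and 5 were lower and none was higher, with a median of -0.26, to be read against the same shares. They were the AMPA receptor partner Cacng2 (-0.50), the glycine and GABA-A receptor anchor Gphn (-0.47), Gabarapl1 (-0.50), Homer2 (-0.51), a scaffold of metabotropic glutamate receptors, and Nsf (-0.61), which acts in vesicle fusion and receptor traffic. Over the 9 measured neuronal markers the log2 fold changes ran from -1.42 to 0.06, with a median of -0.49. The median over the 76 receptor genes was -0.03. The called neuronal markers had log2 fold changes of -0.69 to -0.47, and the median over the 10 lower receptor genes was -0.54. Both of these sets were picked by the test, so their sizes were not compared. The means of the neuronal and the oligodendrocyte markers were lower in all 5 EAE arrays than in the 3 controls, and the part of the cell content of the tissue in the receptor values was not tested.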

How the data were processed

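RNA of whole spinal cords of 5 EAE and 3 control samples was hybridised to 8 MG U74Av2 arrays. The log2 values are those the authors deposited, made in Partek Genomics Suite with RMA, quantile normalization and an adjustment for GC content; the versions are not given in the sources used here. They were not normalized again, and array medians lay between 6.08 and 6.13. The 66 control probe sets were left out. The probe annotation gave 1 symbol for 10833 probe sets, several for 396 and none for 1193. The 92 member probe sets matched the GRCm38.p6 gene table by Entrez identifier with 0 changed symbols, and the table was used for names, neighbours and promoters only.

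EAE and control were compared with limma 3.58.1 in R 4.3.3, with treatment and batch as fixed terms as in the methods, 2 residual and 3.05 prior degrees of freedom, two-sided tests and Benjamini-Hochberg adjustment. The labels give the replicate number as the batch; deviations from the group means correlated by 0.302, -0.231 and 0.412 between the paired arrays of batches 1, 2 and 3. The brightest probe set over the 8 arrays stood for a gene. Values on each array are given for called genes and the brightest member of most classes, and for others that were chosen after their values were seen. On simulated data of the same design, 77.6% of 67 changes of 0.5 and 100% of 67 changes of 1 on the log2 scale were called, with 24 false calls among 209. The alternatives were leaving out batch, a random effect of batch, median centring, quantile normalization, an intensity trend, a robust prior, brighter probe sets only, the mean of a gene's probe sets, a threshold of 0.01, no EAE arrays 1 and 4, and each array left out. The members and lists were chosen with earlier results of these data known. Precision is limited by how many arrays there are. The plots were made in matplotlib 3.10.9.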

Additional observations from a re-analysis of the deposited data

Results flagged for a closer look

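Called probe sets and the brightest receptor of each class, 20 in all, were examined for a single EAE array standing apart from the other EAE arrays. This was found in 1 of the 20, and about 1 in 20 would be found by chance. The histamine receptor Hrh2 was at a log2 signal of 5.19 in EAE array 1 and at 5.29 to 5.32 in the other EAE arrays.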

How the results depend on the processing

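No alternative turned the sign of a called receptor gene. Gabra2 and Gria1 were called in all alternatives, and the other 9 called genes each lost the call in 2 to 9 of the alternatives that gave a value. These counts hold repeats. Leaving out EAE array 4 or 5 gives the main fit again, and either array of a pair gives the same fit. With batch taken out of the model (no replicate block) 18 receptor probe sets were lower and 1 was higher, against 12 and 1 with the block. Gabrb1 was then not called (-0.30) and Adra2c was. The shares over all probe sets were not counted for this or the other alternatives. The counts of receptor probe sets therefore cannot be told from a general gain or loss of calls. No receptor probe set was called higher with a further quantile normalization, a robust variance prior or an adjusted p under 0.01 (0 in each), and 4 were lower at that threshold. With 1 array left out, 5 to 12 were lower and 0 to 1 higher. The median log2 fold change then lay between -0.0674 and -0.0342 for GABA-A and between -0.145 and -0.114 for ionotropic glutamate receptors. Class medians moved by more than 1 SD of their within-batch values for GABA-A without an array of batch 1, for ionotropic glutamate without an array of batch 3, and under the alternatives that follow. With median centring they were -0.0677 for GABA-A, -0.172 for ionotropic glutamate, -0.0280 for nicotinic and -0.0433 for serotonin receptors. With quantile normalization they were -0.0592 for GABA-A, -0.165 for ionotropic glutamate and -0.0291 for nicotinic receptors. With brighter probe sets only they were -0.0945 for all receptor genes, -0.472 for GABA-A, -0.369 for ionotropic glutamate, -0.152 for neuropeptide and 0.0381 for nicotinic receptors. Without EAE arrays 1 and 4 and the batch term the nicotinic median was -0.0173, and with the mean of a gene's probe sets the ionotropic glutamate median was -0.113. With brighter probe sets only, fewer genes of each class were left. The causes of the other shifts were not tested.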
